A study of Mus musculus with 12 samples.

Results

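The comparison set hepatocellular carcinoma (HCC, the tumour of liver cells) from mice labelled Mxcre+, called survivin-deleted HCC here, against non-cancerous liver from mice labelled Mxcre-, called wild-type liver here. Its members were the 3 arrays titled as Mx+ tumour and the 3 titled as Mx- liver, 6 of the 12 arrays of the study. All mice were male, of the mixed strain 129/SV/B6, and received the carcinogen N-nitrosodiethylamine (DEN) at 50 mg per kg body weight at 2 weeks of age. At 8 months after DEN all were given poly(IC), a synthetic double-stranded RNA, and tissue was taken 1 week later, 2 months after irradiation and a bone marrow transplant. Both groups therefore share the carcinogen, the interferon inducer, the irradiation and the transplant, and differ in Cre genotype and in tissue together, so that the effects of deletion and of tumour tissue cannot be told apart in this contrast. Wild-type HCC, of which replicates 2 and 3 were used, gave the level of the tumour with survivin intact, and served to place each gene as staying away from, returning to or passing the level of intact liver.

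Survivin, encoded by Birc5, is a subunit of the chromosomal passenger complex with Aurora B kinase, INCENP and borealin, which corrects chromosome attachment and completes cell division, and it is also counted among the inhibitors of apoptosis. The Mx promoter that drives Cre is induced by interferon, and poly(IC) induces interferon, so that Cre acts in liver cells, in blood cells and in other cells that respond to interferon. The labels name the genotype by Cre alone and do not give the marrow donors' genotype or the part of Birc5 that is removed. Adult liver lobules are zoned: hepatocytes around the central vein carry active Wnt and beta-catenin signalling and make glutamine synthetase, while hepatocytes near the portal tract make urea and glucose.

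Total RNA labelled with Cy3 was hybridised to one-colour arrays, and all levels are log2 signals relative to the 75th percentile of the array, so that 0 is the level of a rather bright probe and 1 unit is a factor of 2. Of 39855 probes kept, the brightest of each gene stood for 26839 genes. Replicate 1 of each group lay on slide 1 and replicates 2 and 3 on slide 2. The 75th percentile signal was 1137 to 1774 on slide 1 and 3344 to 3910 on slide 2, and slide entered the limma fit as a block. Wild-type liver replicate 1 stood apart. In it 49.0% of spots were well above background against 69.2% to 83.4% on the other 11 arrays, and over all genes it correlated with the other liver arrays at 0.911 and 0.908, below its correlation of 0.944 with survivin-deleted HCC replicate 1. The labels do not say that arrays came from separate animals, so p-values measure only the spread between these samples. The arrays labelled survivin-deleted liver replicate 1 and wild-type HCC replicate 1 were left out, because each one's column in the deposited value table matched the other's scanner file (r = 1.00, against 0.964 and 0.970 with its own).

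Of the hepatocyte markers 3 are given by value, and these were at high level on all arrays compared. Albumin (Alb) lay between 6.38 and 7.13, the apolipoprotein Apoa1 between 5.46 and 5.73, and the hepatocyte regulator Hnf4a between 4.17 and 4.71. The groups overlapped for all 3 genes. The differences were 0.09 (SE 0.14, adjusted p = 0.713), 0.04 (SE 0.13, adjusted p = 0.875) and 0.07 (SE 0.15, adjusted p = 0.808), with 95% intervals of -0.23 to 0.41, -0.27 to 0.35 and -0.27 to 0.41. Not all hepatocyte markers were level: Apob differed from liver by -0.49 (limma, unadjusted p = 0.0253).

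Birc5 checks the labels. Its probe of lowest coordinate, at chr11:117711112-117711171 of the mm9 assembly, separated the genotypes most, and its sequence is shown, as printed in the scanner files, because the direction of the deletion rests on it.
Birc5 probe: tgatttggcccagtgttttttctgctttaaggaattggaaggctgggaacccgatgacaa
On this probe wild-type liver was at -0.24, -1.22 and -1.03 on replicates 1 to 3 (mean -0.83 ± 0.52, SD, n = 3). Survivin-deleted HCC was at -2.69, -2.56 and -2.93 (mean -2.72 ± 0.19, SD, n = 3). The groups did not overlap and the difference was -1.90 (SE 0.33). Wild-type HCC lay at -0.85 and 0.08, within or above the range of liver, and survivin-deleted HCC was lower than it by 2.50 on the log2 scale. Of the arrays left out, the scanner file labelled survivin-deleted liver replicate 1 read -0.33, and 0.70 and 2.42 on the next probes along the gene. The file labelled wild-type HCC replicate 1 read -2.06, -0.60 and 0.77. Which labels are right was not tested.

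The other Birc5 probes ran the same way. The probe starting at 117714057 was at 0.75, 0.24 and 0.29 in liver and at -0.25, -0.61 and -0.99 in survivin-deleted HCC, a difference of -1.05 (SE 0.27). The probe starting at 117716978, the brightest and thus the one used across genes, was at 2.85, 0.51 and 0.76 in liver and at 0.05, 0.17 and -0.08 in survivin-deleted HCC. Its difference was -1.32 (SE 0.50, adjusted p = 0.206), and liver replicate 1 carried much of it: -2.79 on slide 1 and -0.59 on slide 2. An exact permutation test of 3 against 3 arrays gave p = 0.1 for each probe, the smallest value that this design allows. Signal remained on all probes in the tumours labelled as deleted. Whether the probes lie in the removed part is not given in the sources used here, and bulk tissue cannot tell fewer cells with a transcript from less RNA per cell.

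**Figure D1:**
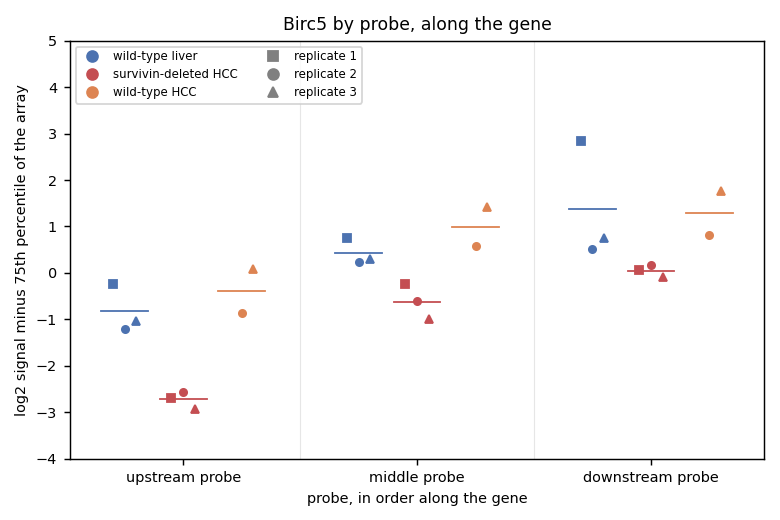
Log2 level of the 3 Birc5 probes in order along the gene (horizontal axis), by array (points; shape gives the replicate) with group means (lines), for wild-type liver, survivin-deleted HCC and wild-type HCC. The survivin-deleted HCC arrays sit below all liver arrays on each probe, from -2.93 to -2.56 on the upstream probe.

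Another pair of labels was checked through the X chromosome. The transcript named XIST on the array, which is made from an inactive X chromosome and so marks female cells, was at -1.77, -1.31 and -1.87 in wild-type liver and at -4.90, -6.18 and -6.33 in survivin-deleted HCC, where 1 of 3 arrays had it well above background. It had the smallest p of the contrast (-4.16, SE 0.32, adjusted p = 0.0783) and did not pass. Wild-type HCC was near liver, at -1.88 and -2.13, and survivin-deleted liver near the deleted tumours, at -5.96 and -6.09, so that on this probe the level went with the Cre label and not with the tissue. The other probes named XIST ran the same way, but those named Xist did not separate the groups. On a first, liver was at -3.88, -5.61 and -3.09 and survivin-deleted HCC at -1.92, -3.78 and -5.72. On another, survivin-deleted HCC replicate 2, at -4.12, lay above liver replicate 1, at -4.36. Of the Y-linked genes, Eif2s3y and Ddx3y were well above background on all 6 arrays compared and Kdm5d on 0. The level of Ddx3y varied, at 0.37, 2.09 and -1.08 in liver and at 0.80, 1.77 and 0.67 in survivin-deleted HCC. In wild-type HCC Ddx3y was at 1.95 and -5.00. The probes of Uty were so on 2 of 3 arrays of each group in one case, and on 2 of 3 liver arrays and 0 of 3 deleted tumours in the other. The labels call every mouse male. The source of the XIST signal was not tested.

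Across the 26839 genes none passed an adjusted p of 0.05 in survivin-deleted HCC against wild-type liver, in either direction (0% higher, 0% lower, limma with Benjamini-Hochberg adjustment). At an unadjusted p under 0.05, 3164 genes (11.8%) were higher in the tumour and 2450 (9.13%) lower. The 3 tumour arrays lay wholly above the 3 liver arrays for 2070 genes (7.71%) and wholly below them for 1209 (4.5%). The excess of higher genes depended on dim genes. Where only genes well above background on all arrays were kept, 1717 were higher and 2429 lower at that p. In that setting 970 lay wholly above liver and 1046 wholly below it. An adjusted p under 0.2 was reached by 3953 genes. The median difference over all genes was 0.05. All single genes below are therefore given by value, and none is called changed unless the sentence says that it passed.

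The genes of smallest p among the higher ones were led by Timp1, the tissue inhibitor of metalloproteinases 1, whose probe lies at chrX:20451802-20451861 of mm9. Timp1 was at 0.36, -0.35 and -1.10 in liver and at 3.27, 1.90 and 2.45 in survivin-deleted HCC, so that every tumour array exceeded every liver array by more than 1 unit. The difference was 2.90 (SE 0.30, adjusted p = 0.123) and was nearly equal on the slides (2.91 and 2.90). Tspan8, a tetraspanin of epithelial tumours, was at -0.12, -0.91 and 0.42 in liver and at 2.18, 2.40 and 2.43 in the tumours, a difference of 2.54 (SE 0.35, adjusted p = 0.123). Both genes were also high in wild-type HCC, at 1.16 and 1.91 for Timp1 and at 2.53 and 1.97 for Tspan8.

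Ankrd1, a nuclear ankyrin-repeat protein, Ly6i, a Ly6 family surface protein, and A2m, a protease inhibitor of plasma, completed the 5. They were dim in liver, with 2 of 3 liver arrays well above background each, so the sizes are uncertain. The tumour arrays ranged from -2.33 to -1.01 for Ankrd1, from -2.87 to -2.85 for Ly6i and from -2.06 to -0.55 for A2m. The liver arrays ranged from -5.33 to -3.60, from -4.45 to -4.09 and from -4.86 to -3.97. No group overlapped with the other. Unlike Timp1, Ly6i and A2m lay at liver level in wild-type HCC, at -4.36 and -4.73 and at -4.03 and -4.94.

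Behind XIST, the lower genes of smallest p were Dars, an aspartyl-tRNA synthetase, Pim3, a serine/threonine kinase, Slc16a9, a carnitine and creatine transporter, and Rnf32, a RING finger protein. Dars was at 2.24, -1.06 and -1.20 in liver and at 0.19, -2.75 and -2.57 in the tumours. The groups overlapped because both replicates on slide 1 read high, and within a slide the tumours were lower by 2.05 and 1.53 on the log2 scale (combined -1.71, SE 0.18, adjusted p = 0.123). Pim3 was at 3.07, 1.19 and 1.48 in liver and at 1.43, -0.56 and 0.02 in the tumours (-1.62, SE 0.18, adjusted p = 0.123). Slc16a9 was at -0.49, -1.04 and -0.98 in liver and at -1.82, -2.60 and -2.26 in the tumours, with wild-type HCC beside them at -2.33 and -2.55. Rnf32 was lower by 1.07 on the log2 scale and was well above background on 2 of 3 arrays in each group. The adjusted p was 0.123 for each of these 4 genes.

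**Figure D2:**
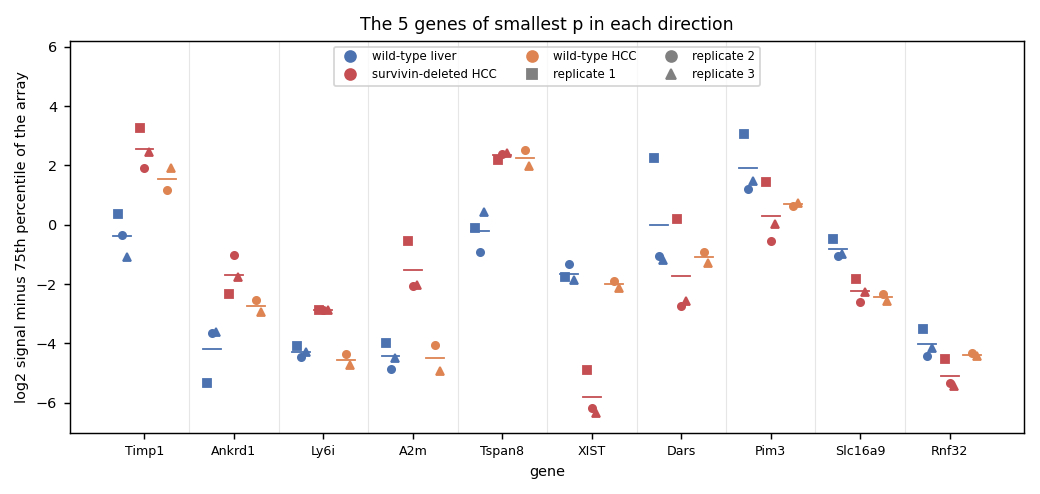
Log2 level on each array (points; shape gives the replicate) and group mean (lines) of the 5 genes of smallest p in each direction, higher genes left and lower genes right. Timp1, Tspan8 and Slc16a9 have wild-type HCC beside survivin-deleted HCC, while Ly6i, A2m and XIST have it beside wild-type liver.

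To place the deleted tumours against both references, genes were sorted by groups that did not overlap: the wild-type tumours against liver and the tumour groups against each other on slide 2, where the wild-type HCC arrays lie, and survivin-deleted HCC against liver on all 3 arrays a side. These contrasts share arrays, so the counts describe an order and are no test. The levels were not corrected for slide, so groups can overlap across slides where they do not within a slide. Mmp7, given below, is such a case. On slide 2 alone, which has fewer arrays, 2692 genes returned, 2652 stayed and 1770 passed, so the excess of returning genes depends on the arrays used. By this order 4548 genes (16.9%) returned, which means that the wild-type tumours lay apart from liver, the deleted tumours lay apart from the wild-type tumours on the side of liver, and the deleted tumours overlapped with liver. A further 791 genes (2.95%) stayed, with both tumour groups on one side of liver and overlapping each other. Another 575 (2.14%) lay farther out in the deleted tumours, 141 (0.525%) lay part way back and 273 (1.02%) lay past the liver level on the other side.

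Conditions on the unadjusted p were added after these counts were seen. They kept 482 genes (1.8%) of the returning order, with p under 0.05 in wild-type HCC against liver and between the tumour groups. For these genes p was 0.05 or more in the deleted tumours against liver. They kept 163 genes (0.607%) of the passing order, with p under 0.05 between the tumour groups and in the deleted tumours against liver. No p was asked there of wild-type HCC against liver. For staying, a p of 0.05 or more between the tumour groups took the place of the overlap on slide 2. This gave 309 genes (1.15%), of which 211 were in the staying order, 60 lay part way back and 38 farther out. With adjusted p-values the 3 counts were 0. The reference contrasts had 1731 genes (6.45%) at an unadjusted p under 0.05 in wild-type HCC against liver, with 0 at an adjusted p of 0.05, and 3187 (11.9%) between the tumour groups, 1637 (6.1%) of them higher and 1550 (5.78%) lower in the deleted tumours. In the latter 2 genes passed, Cyp3a41b and Dntt. With replicate in place of slide as the block, Dntt and Oat passed and Cyp3a41b did not. Cyp3a41b, a cytochrome P450, was at 1.49 and 1.84 in the deleted tumours of slide 2 and at -0.81 and -0.88 in wild-type HCC (2.54, SE 0.20, adjusted p = 0.0480). Dntt, which encodes terminal deoxynucleotidyl transferase, was at -2.56 and -2.41 against 1.43 and 1.24 (-3.87, SE 0.25, adjusted p = 0.0197). Wild-type liver of slide 2 was at 1.05 and 1.11 for Cyp3a41b and at -1.10 and -1.84 for Dntt. Within a slide the deleted tumours thus lay past the liver level. For Cyp3a41b they differed from liver by 0.79 on slide 1 and 0.58 on slide 2 (0.65 combined, SE 0.17, adjusted p = 0.145). For Dntt the differences were -1.32 and -1.015 (-1.12 combined, SE 0.21, adjusted p = 0.131). Both genes were in the returning order, because the groups overlapped across slides.

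Among genes in the returning order, those of largest fitted difference between the tumour groups were Slc1a2, Snhg11, Axin2, Mmp7 and Lhpp. Snhg11 and Axin2 were well above background on neither wild-type HCC array and Mmp7 on 1 of 2, so that the background limits their sizes and they have no rank among the 5. Slc1a2, a glutamate transporter of pericentral hepatocytes, was at -4.90 and -4.07 in wild-type HCC, at 2.15, 3.10 and 0.56 in survivin-deleted HCC and at 2.28, -0.59 and 0.69 in liver. The deleted tumours were thus in the range of liver or above it, and the wild-type tumours far below both. The tumour groups differed by 5.99 (SE 0.86, adjusted p = 0.210), and the deleted tumours differed from liver by 1.14 (SE 0.73, adjusted p = 0.389). Lhpp, a histidine phosphatase, was at -2.41 and -0.90 in wild-type HCC, at 2.25, 3.31 and 2.37 in the deleted tumours and at 2.33, 1.47 and 2.51 in liver.

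Mmp7, the metalloproteinase matrilysin, was at -5.99 and -6.43 in wild-type HCC, where 1 of 2 arrays had it well above background, at -0.97, -0.48 and -2.12 in the deleted tumours and at -1.55, -2.78 and -4.48 in liver. Snhg11, a small nucleolar RNA host gene, was not well above background in wild-type HCC. In the deleted tumours it was at -1.85, -3.45 and -1.52, at least 12.7-fold above wild-type HCC on slide 2 (array floor or reading, whichever was higher, as the wild-type HCC level), and in liver at -1.12, -2.76 and 0.21. With the conditions added after the values were seen, Oat, Cyp4a14 and Cyp1a2 joined Slc1a2 and Lhpp. Cyp4a14, a fatty acid hydroxylase, was at -3.38 and -3.85 in wild-type HCC, against 0.14, 0.71 and 0.12 in the deleted tumours and 1.55, -0.11 and 1.12 in liver.

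In the passing order the largest differences between the tumour groups were those of Alcam, Ttc22, Tbx3, Cyp1b1 and Slc4a3. Alcam, an adhesion molecule, owed its place to 1 array: the deleted tumours were at 2.18, 2.18 and -7.63, the last not above background, against 2.57, 2.84 and 2.56 in liver. Ttc22, a tetratricopeptide repeat protein, was not well above background in liver or wild-type HCC. The order of these groups, and with it the passing class of Ttc22, thus rests on background readings. Its level in the deleted tumours was at least 1.82-fold that of liver (array floor as the liver level). Slc4a3, an anion exchanger, was at -1.32, 1.08 and -0.06 in the deleted tumours, at -1.79, -1.74 and -1.63 in liver and at -1.85 and -2.41 in wild-type HCC (1.62 against liver, SE 0.42, adjusted p = 0.143). Cyp1b1, a cytochrome P450 that activates carcinogens, was at -3.43, -1.07 and -2.84 in the deleted tumours and at -3.48, -3.50 and -4.48 in liver, where 2 of 3 arrays had it well above background.

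Genes that met the conditions added later in the passing order included Hk2, Ntf3 and Arhgap30. Hk2, the hexokinase that tumours use in place of glucokinase, was at -0.46, -1.07 and -2.25 in the deleted tumours against -2.27, -2.45 and -2.98 in liver and -3.29 and -3.90 in wild-type HCC. The deleted tumours exceeded liver by 1.31 (SE 0.40, adjusted p = 0.160), but replicate 3 was near the highest liver array. Ntf3, a neurotrophin, exceeded liver by 1.22 (SE 0.33) and Arhgap30, a GTPase activator of blood cells, by 1.22 (SE 0.38).

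The staying order was led, by difference between the tumour groups, by Bean1, Lrtm1, Pgf, Tmlhe and Slc2a5. Single arrays stood out in most of these. Bean1 read 0.97 in survivin-deleted HCC replicate 2 against -3.10 and -4.03 in the other tumours labelled as deleted, and 1 of 3 liver arrays had it well above background. Slc2a5, the fructose transporter GLUT5, read -3.98 in the same replicate against -0.53 and -0.34. Tmlhe, an enzyme of carnitine synthesis, read -4.48 in wild-type HCC replicate 3 against 0.33 in replicate 2.

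Lrtm1, a leucine-rich repeat membrane protein, was lower in every tumour than in liver, at -3.03, -2.31 and -0.58 in the deleted tumours and at -5.37 and -1.50 in wild-type HCC against 0.48, -0.10 and 0.27 in liver. Pgf, the placental growth factor, was higher, at -2.58, 0.54 and -3.16 and at -2.91 and -2.85 against -5.11, -3.56 and -3.79. The conditions added later named Akr1c19, Serpinb1a, Pth1r, Hectd2 and Rdh16, which were low in both tumour groups and, by the groups on slide 2, lay part way back. For Hectd2, a ubiquitin ligase, liver was at 0.79, 0.41 and 1.39, the deleted tumours at -0.90, -1.68 and -1.51 and wild-type HCC at -2.33 and -2.39. The difference between the deleted tumours and liver was -2.23 (SE 0.45, adjusted p = 0.132) for Hectd2, -1.73 (SE 0.53, adjusted p = 0.160) for the aldo-keto reductase Akr1c19 and -0.86 (SE 0.32, adjusted p = 0.202) for the retinol dehydrogenase Rdh16.

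In the gene lists, counts at an unadjusted p under 0.05 stand beside 11.8% higher and 9.13% lower over all genes. Those shares include dim genes, and among genes well above background on all arrays more were lower than higher. Leaving out 1 array moved such a count by over 1.5 times, or to or from 0, in 36 of the 37 lists, so the arrays that did so are given with most of the counts.

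Most genes of the pericentral Wnt and beta-catenin list had a higher mean in survivin-deleted HCC than in liver and a lower one in wild-type HCC. All 19 listed genes were measured. In the deleted tumours 15 were higher than in liver and 4 lower, with 3 higher and 0 lower at an unadjusted p under 0.05, beside 11.8% and 9.13% of all genes. The median difference from liver was 0.69, against 0.05 over all genes. The median of wild-type HCC from liver was -1.61, against 0.01 over all genes, and that between the tumour groups was 2.31, against 0.05. Between the tumour groups 15 of the 19 were higher in the deleted tumours at an unadjusted p under 0.05, beside 6.1% of all genes. By order 13 returned and 1 passed, beside 16.9% and 1.02% of all genes. With all 12 arrays and the 2 arrays in doubt exchanged, the 15 became 10 and the median of wild-type HCC from liver -0.84, and with the arrays as labelled that median was -1.15.

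A 7-base word that TCF and LEF factors, the partners of beta-catenin on DNA, bind (CTTTGAT, or ATCAAAG read on the other strand) was searched in the 250 bases before the start of each transcript in a RefSeq promoter table of the GRCm38.p6 assembly. Of the 19 genes 13 were in the table and 3 held the word, Sp5, Slc1a2 and Lect2. Of all 32851 stretches 1053 (3.21%) held it. The stretches of these 3 genes are shown because they hold the word. The tumour groups differed by 3.22 (SE 0.77, adjusted p = 0.263) in Sp5, 5.99 in Slc1a2 and 2.09 (SE 0.50, adjusted p = 0.263) in Lect2, and none of the 3 passed. They read 5′ to 3′ on the strand of the gene, with the word in capitals.
Sp5 (chr2:70474673-70474922, plus strand): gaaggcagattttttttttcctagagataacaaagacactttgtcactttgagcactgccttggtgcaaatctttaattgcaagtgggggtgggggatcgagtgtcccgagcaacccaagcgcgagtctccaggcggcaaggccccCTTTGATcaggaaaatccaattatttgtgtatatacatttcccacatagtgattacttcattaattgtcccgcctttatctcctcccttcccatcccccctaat
Slc1a2 (chr2:102706188-102706437, plus strand): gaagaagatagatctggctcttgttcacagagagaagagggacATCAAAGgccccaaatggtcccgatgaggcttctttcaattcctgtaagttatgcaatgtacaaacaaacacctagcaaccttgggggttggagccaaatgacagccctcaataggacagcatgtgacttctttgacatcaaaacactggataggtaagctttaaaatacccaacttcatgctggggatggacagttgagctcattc
Lect2 (chr13:56548539-56548788, minus strand): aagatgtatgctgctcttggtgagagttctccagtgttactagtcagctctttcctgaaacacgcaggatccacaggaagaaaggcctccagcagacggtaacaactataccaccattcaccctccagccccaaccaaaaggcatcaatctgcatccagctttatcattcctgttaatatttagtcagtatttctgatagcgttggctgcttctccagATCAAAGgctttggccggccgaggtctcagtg
The word begins 104 bases before the start in Sp5, 207 in Slc1a2 and 32 in Lect2. A match is a description of letters and shows no binding.

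Feedback genes of the Wnt pathway come first. Axin2, part of the complex that marks beta-catenin for destruction, was at -0.88, -1.57 and -3.95 in the deleted tumours, at -5.32, -4.57 and -3.94 in liver, where 2 of 3 arrays had it well above background, and not well above background in wild-type HCC, where its level was at least 10.5-fold lower than in the deleted tumours of slide 2. Replicates 1 and 2 of the deleted tumours were well above liver and replicate 3 was level with its highest array (2.48, SE 0.79, adjusted p = 0.166). Lgr5, the R-spondin receptor, was at 1.90, 2.32 and -0.85 against 0.30, -1.49 and -0.64 in liver and -3.71 and -2.24 in wild-type HCC (1.74, SE 0.78, adjusted p = 0.254). Sp5, a transcription factor induced by Wnt, was at 0.13, -0.41 and -2.63 against -1.66, -3.18 and -2.67 in liver and -5.17 and -4.19 in wild-type HCC (1.53, SE 0.66, adjusted p = 0.242). In these 3 genes survivin-deleted HCC replicate 3 lay within the range of liver and replicates 1 and 2 above it.

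The other feedback genes differed less. The ubiquitin ligases Rnf43 and Znrf3, which remove Wnt receptors, exceeded liver by 0.45 (SE 0.30) and 0.69 (SE 0.32), the antagonists Nkd1 and Notum by 0.64 (SE 0.46) and 0.26 (SE 0.20), and the DNA-binding partner of beta-catenin Tcf7 by 0.72 (SE 0.45). None of these 5 had an unadjusted p under 0.05.

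Tbx3, a transcription factor of pericentral cells, lay past the liver level. It was at 2.44, 3.59 and 2.29 in the deleted tumours, at 1.92, 0.83 and 1.78 in liver and at -1.15 and -0.39 in wild-type HCC, so that none of the 3 groups overlapped. The difference from liver was 1.26 (SE 0.45, adjusted p = 0.191) and that between the tumour groups 3.52 (SE 0.56, adjusted p = 0.210).

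Among the ammonia and glutamate genes of the pericentral rim, Glul, Rhbg and Oat overlapped with liver and lay above both wild-type HCC arrays. Glul, glutamine synthetase, was at 3.07, 3.71 and 2.49 in the deleted tumours, at 2.17, 1.69 and 2.58 in liver and at 0.57 and 1.00 in wild-type HCC (0.94 against liver, SE 0.36, adjusted p = 0.211). Rhbg, an ammonium transporter, was at 4.32, 3.71 and 2.44, against 4.03, 1.14 and 2.15 in liver and -1.18 and -0.47 in wild-type HCC. Oat, ornithine aminotransferase, was at 3.67, 2.41 and 2.90, against 3.21, 1.84 and 3.18 in liver and -1.66 and -1.34 in wild-type HCC. Its tumour groups differed by 4.21 (SE 0.41, adjusted p = 0.0783), while the deleted tumours differed from liver by 0.25 (SE 0.35, 95% interval -0.57 to 1.08). Slc13a3, a dicarboxylate transporter, exceeded liver by 0.69 (SE 0.38), and the amino acid transporter Slc1a4 differed by -0.01 (SE 0.15).

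Lect2, a secreted protein of hepatocytes, was at 4.41, 4.26 and 3.51 in the deleted tumours, at 2.96, 3.25 and 3.70 in liver and at 1.28 and 2.65 in wild-type HCC. The pericentral P450 enzymes overlapped with liver, had means below it and lay above wild-type HCC. Cyp1a2, which oxidises caffeine and aromatic amines, was at 4.52, 4.11 and 3.13 in the deleted tumours, at 4.76, 3.77 and 4.52 in liver and at -0.94 and 0.70 in wild-type HCC (-0.43 against liver, SE 0.52, adjusted p = 0.646). Cyp2e1, which oxidises ethanol, was at 5.52, 4.99 and 5.12 against 6.62, 5.07 and 5.56 in liver and 3.62 and 4.07 in wild-type HCC (-0.54, SE 0.26, adjusted p = 0.282). The calcium-binding enzyme Rgn differed from liver by -0.26 (SE 0.20). The mean level over the list was 2.45, 2.21 and 1.11 in replicates 1 to 3 of the deleted tumours and 1.76, 0.68 and 1.22 in liver. The median difference of the list from liver was 0.40 without survivin-deleted HCC replicate 2 and 1.08 without replicate 3. The 3 genes higher than liver at an unadjusted p under 0.05 became 0 without replicate 2, 9 without replicate 3 and 1 without liver replicate 2, where 1 gene was lower.

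**Figure D3:**
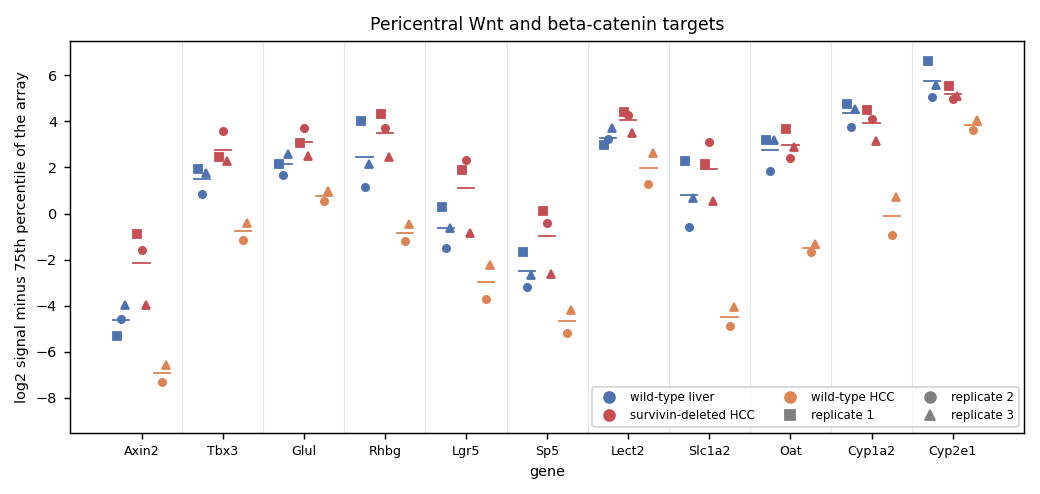
Log2 level on each array (points; shape gives the replicate) and group mean (lines) of 11 pericentral Wnt and beta-catenin genes in wild-type liver, survivin-deleted HCC and wild-type HCC. Wild-type HCC has the lowest points for all 11 genes shown, for Axin2 at background, and survivin-deleted HCC overlaps with liver or lies above it. Replicate 3 is the lowest survivin-deleted HCC array for all genes shown but Oat and Cyp2e1.

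Rspo3, which encodes an R-spondin that central vein endothelium secretes to sustain Wnt signalling in neighbouring hepatocytes, was lower in the deleted tumours. It was at 0.54, -2.87 and -0.76 there, at 2.14, -0.36 and -0.10 in liver and at -2.46 and -1.91 in wild-type HCC, a difference from liver of -1.59 (SE 0.53, adjusted p = 0.176) of like size on the slides (-1.60 and -1.58).

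The partners of survivin had no common direction. Cdca8, which encodes borealin, was at 0.12, -0.75 and -0.62 in the deleted tumours and at 1.13, -0.37 and -0.16 in liver (-0.62, SE 0.23, adjusted p = 0.206). Aurkb, Aurora B kinase, differed by 0.61 (SE 0.38, adjusted p = 0.382), all of it on slide 1 (1.84, against -0.01 on slide 2), and Incenp by 0.24 (SE 0.21, adjusted p = 0.519). Genes of mitosis and spindle were mostly lower than in liver by small amounts: 22 of 28 measured genes were lower and 6 higher, with 4 lower and 0 higher at an unadjusted p under 0.05 and a median of -0.28. Their median in wild-type HCC against liver was 0.45 and between the tumour groups -0.69. Between the tumour groups 14 of the 28 were lower in the deleted tumours at an unadjusted p under 0.05, beside 5.78% of all genes. In the returning order were 20, beside 16.9% of all genes. Without a slide block the 14 became 3, and with all 12 arrays as labelled 1, where the median of wild-type HCC from liver was 0.08 (0.13 without a block). The 4 became 2 without liver replicate 3 and without replicate 1 of either group, where 1 gene was higher.

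Among the mitotic genes, Ndc80, a kinetochore protein that binds microtubules, was at -1.74, -2.75 and -2.28 in the deleted tumours and at -0.83, -2.10 and -1.82 in liver. The difference was -0.67 (SE 0.18, adjusted p = 0.146), and wild-type HCC was at -1.66 and -1.44. Cenpa, the histone of centromeres, was at 0.28, -1.18 and -1.05 against 0.56, -0.39 and -0.47 in liver and 0.02 and 0.43 in wild-type HCC (-0.55 against liver, SE 0.17, adjusted p = 0.158). Within a slide, each deleted tumour lay below each liver array for both genes. Ube2c, which helps to destroy cyclins, and Nusap1, a spindle protein, were lower than liver by 0.42 and 0.39 on the log2 scale. Cyclin B2 (Ccnb2) was at 0.49, -0.15 and 0.17 against 0.79, 0.37 and 0.47 in liver and 0.86 and 1.74 in wild-type HCC, and its difference from liver of -0.37 had adjusted p = 0.389.

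Genes of DNA replication and S phase were lower in 20 of 24, with 5 lower and 0 higher at an unadjusted p under 0.05 and a median of -0.35. The 5 became 2 without tumour replicate 2 or liver replicate 3 and 8 without liver replicate 2. In wild-type HCC their median was -0.06. Thymidine kinase (Tk1) was at 1.64, 0.86 and 1.62 in the deleted tumours, below liver at 3.40, 2.12 and 1.81, with wild-type HCC beside the deleted tumours at 1.68 and 1.49 (-1.07, SE 0.30, adjusted p = 0.149). Rfc4, a subunit of the clamp loader, was lower by 0.60 (SE 0.19) on the log2 scale, and Pcna, the sliding clamp, by 0.41 (SE 0.14) (-0.42 on slide 1 and -0.41 on slide 2). Gins2, a helicase subunit, and Rrm1, a subunit of ribonucleotide reductase, were the others under 0.05.

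Targets of p53 had a median of 0.04, beside 0.05 over all genes, and 4 of 17 were higher and 0 lower at an unadjusted p under 0.05. The median was 0.29 without replicate 1 of either group and 0.22 under normexp background correction, the 4 became 2 without liver replicate 3, and 1 gene was lower without tumour replicate 3. The cell cycle inhibitor p21 (Cdkn1a) was at 0.78, 2.55 and 0.53 in the deleted tumours against 0.11, -0.03 and -0.66 in liver (1.49, SE 0.62, adjusted p = 0.232), with replicate 2 the highest. Fas, the death receptor, was at 0.73, 0.80 and 0.90 against 0.10, 0.26 and 0.14 in liver, groups that did not overlap and were tight (0.64, SE 0.17, adjusted p = 0.146). Mdm2, the ligase that removes p53, and Phlda3, an inhibitor of Akt, exceeded liver by 0.47 (SE 0.12) and 0.67 (SE 0.28). Of the apoptosis regulators 1 of 18 was higher and 2 lower at an unadjusted p under 0.05, with a median of 0.14, which was 0.04 without tumour replicate 2. The higher count was 0 without replicate 2 of either group and 2 without replicate 1 of either, and the lower count 1 without liver replicate 3.

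Among the apoptosis regulators, Casp8, the initiator caspase of death receptors, was lower by 0.49 (SE 0.19) on the log2 scale, and Bcl2a1d, an inhibitor of apoptosis in blood cells, higher by 1.27 (SE 0.51).

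Several hepatocyte metabolic lists other than the pericentral one had medians below liver. Of 26 periportal enzymes of amino acid, urea and glucose metabolism 23 were lower, 3 of them and 0 higher ones at an unadjusted p under 0.05, beside 9.13% of all genes lower, with a median of -0.49 (-0.53 on slide 1 and -0.52 on slide 2). The median in wild-type HCC was -0.15. That of the deleted tumours was -0.19 without their replicate 2 and -0.88 without replicate 3. The 3 became 0 without replicate 1 of either group or tumour replicate 2, 1 without liver replicate 3 and 15 without tumour replicate 3. G6pc, glucose-6-phosphatase, was at 2.95, 2.52 and 3.49 in the deleted tumours against 5.27, 3.38 and 4.41 in liver (-1.37, SE 0.45, adjusted p = 0.172). Cth, which makes cysteine, was lower by 0.83 (SE 0.31) on the log2 scale.

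Of 29 cytochrome P450 genes of families 1 to 3, 26 were lower than in liver, with 9 lower and 0 higher at an unadjusted p under 0.05. The groups of 3 did not overlap for 6 lower ones, beside 4.5% of all genes. Their median was -0.43, and -0.67 in wild-type HCC. Cyp2d22 was at 3.14, 4.07 and 4.28 in the deleted tumours and at 3.59, 4.91 and 5.07 in liver (-0.70, SE 0.15, adjusted p = 0.134). Cyp3a11, the main drug-metabolising 3A enzyme of mouse liver, was at 4.51, 5.12 and 4.82 against 4.97, 5.42 and 5.61 in liver and 4.66 and 4.53 in wild-type HCC. Cyp2b10, the classical target of the receptor CAR, was not well above background on any tumour array of either genotype and on 2 of 3 liver arrays, where its level was at least 2.27-fold that of the deleted tumours. Cyp2f2, a periportal P450, rested on replicate 2, with 4.51, 0.99 and 4.74 against 5.95, 4.90 and 5.52.

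Glutathione transferases and other NRF2 targets were low in both tumour groups: 25 of 27 were lower than in liver in the deleted tumours, with 7 lower and 0 higher at an unadjusted p under 0.05, and the median was -0.47, beside -0.65 in wild-type HCC. Gstt2 was at 2.15, 2.82 and 2.36 against 2.97, 3.23 and 3.60 in liver (-0.82 on both slides, SE 0.20, adjusted p = 0.138). Me1, malic enzyme, was at 0.67, 0.72 and 1.13 against 1.72, 1.64 and 2.26. Both genes had groups that did not overlap. Gstm1, Gstp2 and Mgst3 were lower by 0.58, 0.47 and 0.78 on the log2 scale. Without liver replicate 3 the 7 became 2.

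Genes of bile acid synthesis and transport were lower in 22 of 24, with 6 lower and 0 higher at an unadjusted p under 0.05 and a median of -0.45, beside -0.52 in wild-type HCC. The uptake carrier Slc10a1 was at 6.21, 6.13 and 6.05 against 7.01, 6.33 and 6.42 in liver (-0.45, SE 0.15, adjusted p = 0.181), and the export pump Abcc2 at 1.73, 1.34 and 1.32 against 2.65, 1.79 and 1.78 (-0.61, SE 0.21, adjusted p = 0.179). Baat, which joins bile acids to taurine, was lower by 0.68 (SE 0.20) and the anion transporter Slco1a4 by 1.18 (SE 0.38) on the log2 scale. Cyp8b1, the sterol hydroxylase that makes cholic acid, was at -1.88, -0.48 and -0.98 against 0.33, 1.16 and 0.56. Without liver replicate 1 the 6 became 1, as they did without survivin-deleted HCC replicate 1.

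The regulators of hepatocytes were less shifted, with a median of -0.16 over 18 genes and 3 lower and 0 higher at an unadjusted p under 0.05. The 3 became 1 without replicate 1 of either group or tumour replicate 2 and 6 without tumour replicate 3, while 2 were higher without tumour replicate 2 and 1 without liver replicate 3. Nr0b2, the repressor SHP that bile acids induce, was at 3.23, 1.67 and 2.46 in the deleted tumours against 4.32, 3.45 and 3.33 in liver and 2.95 and 2.85 in wild-type HCC (-1.25, SE 0.24, adjusted p = 0.131). The groups of 3 did not overlap. Onecut1 and Ppara, both transcription factors of liver, were lower by 0.74 (SE 0.27) and 0.59 (SE 0.23) on the log2 scale. Of 24 secreted hepatocyte proteins 6 were lower and 0 higher at an unadjusted p under 0.05, and the median of -0.09 turned to 0.15 under quantile normalization, where 0 were lower and 2 higher. Under normexp background correction 1 was lower. The 6 became 3 without liver replicate 1 or 3 and without survivin-deleted HCC replicate 1 or 2. Serpina1a, an antitrypsin, was at 6.39, 6.33 and 6.29 against 6.81, 6.87 and 6.85 (-0.50, SE 0.12, adjusted p = 0.136), a small difference between tight groups. Ahsg, Fga and Apob were lower by 0.62, 0.57 and 0.49 on the log2 scale. Coagulation and complement genes had a median of -0.23 over 28, which was -0.11 without replicate 1 of either group.

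Of 29 genes of fatty acid oxidation 22 were lower, with 7 lower and 0 higher at an unadjusted p under 0.05. The groups of 3 did not overlap for 7 lower ones, beside 4.5% of all genes. The median was -0.27. The 7 at that p became 4 without replicate 1 of either group, 2 without survivin-deleted HCC replicate 2, 11 without its replicate 3 and 1 without liver replicate 3, and 1 gene was higher without tumour replicate 2 or 3 or liver replicate 3. Slc25a20, the carnitine carrier of mitochondria, was at 1.02, 0.94 and 1.15 against 2.32, 1.33 and 2.07 in liver (-0.87, SE 0.29, adjusted p = 0.177). Acadm, a medium-chain dehydrogenase, and Creb3l3, a regulator of fasting metabolism, were lower by 0.59 and 0.68 on the log2 scale. The lipid droplet list had 4 of 19 lower, beside 9.13% of all genes, and a median of -0.34, and the 4 became 1 without replicate 1 of either group, tumour replicate 2 or liver replicate 3. Fitm1, a protein of lipid droplet formation, lay part way back: it was at -0.99, -2.13 and -2.34 in the deleted tumours, at 0.37, 0.04 and 1.44 in liver and at -4.84 and -6.43 in wild-type HCC. Cd36, a fatty acid receptor, was at 1.98, 1.73 and 2.87 against 3.09, 2.81 and 3.67, with wild-type HCC at 2.03 and 1.75.

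Lipid synthesis lay nearer to liver in the deleted than in the wild-type tumours. Genes of cholesterol synthesis had a median difference from liver of -0.05 in the deleted tumours, whose sign turned under quantile normalization (0.07), and of 0.48 in wild-type HCC, which was 0.14 with all 12 arrays as labelled and 0.21 with the arrays in doubt exchanged. The first also turned without tumour replicate 3 (0.07). Between the tumour groups their median was -0.54. At an unadjusted p under 0.05, 8 of 24 were lower in the deleted tumours and 0 higher, beside 5.78% and 6.1% of all genes. In the returning order were 10, beside 16.9% of all genes. The 8 became 5 with all 12 arrays and the arrays in doubt exchanged, 0 with them as labelled, 3 without a slide block and 5 without survivin-deleted HCC replicate 3. Nsdhl, a sterol dehydrogenase, was at 2.79, 1.70 and 1.56 in the deleted tumours, at 3.02, 1.94 and 2.23 in liver and at 2.46 and 3.35 in wild-type HCC. Hsd17b7 and Sc5d, other enzymes of the pathway, were lower in the deleted than in the wild-type tumours by 0.93 each on the log2 scale, and differed from liver by -0.47 and -0.38. Sqle, squalene epoxidase, exceeded liver by 0.37 (SE 0.14).

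Fatty acid synthesis had medians of -0.13 in the deleted and 0.44 in the wild-type tumours, with 3 of 20 lower than liver in the former at an unadjusted p under 0.05, 1 without tumour replicate 2. The 0.44 was 0.23 with all 12 arrays as labelled, 0.19 with the arrays in doubt exchanged and 0.25 without liver replicate 3. The median of the deleted tumours was at 0.00 under normexp background correction. Thrsp, which promotes fat synthesis, was at 4.39, 3.75 and 3.99 against 5.32, 4.57 and 4.55 in liver (-0.77, SE 0.22, adjusted p = 0.148), and Pklr, pyruvate kinase of liver, at -1.50, -1.60 and -0.80 against -0.81, 0.18 and -0.58 (-0.89, SE 0.29, adjusted p = 0.167). Of 26 genes of glycolysis and hypoxia 4 were higher and 3 lower at an unadjusted p under 0.05. Ndrg1, which hypoxia induces, was at 2.21, 3.25 and 2.04 against 1.26, 1.40 and 1.79 in liver, and Gapdh at 5.09, 4.60 and 4.74 against 6.89, 5.12 and 5.28. The median of 0.23 turned to -0.16 without survivin-deleted HCC replicate 2. The 4 became 2 without replicate 2 of either group, and the 3 became 0 without liver replicate 1 and 1 without tumour replicate 1 or liver replicate 2.

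Male-biased liver genes had the lowest median of all lists, -1.08 over 20 genes, and it rested on 1 tumour. It was -0.05 on slide 1, -2.00 on slide 2 and -0.32 without survivin-deleted HCC replicate 2. In that replicate the urinary protein Mup5 read -1.82 against 2.73 and 2.94 in the others and 2.73, 3.39 and 3.84 in liver, and the fatty acid hydroxylase Cyp4a12a read -5.71, not above background, against 3.33 and 2.19. Only Cyp2d9 had an unadjusted p under 0.05, but 10 of the 20 did without tumour replicate 3 and 3 without replicate 1 of either group. Cyp2d9 was at 5.34, 4.58 and 4.18 against 5.69, 5.31 and 5.42 in liver (-0.77, SE 0.20, adjusted p = 0.144). Susd4 and Cyp7b1 were low in wild-type HCC too, at -3.49 and -3.51 and at 0.12 and -0.04, against 1.52, 0.26 and 1.01 and 3.30, 2.49 and 3.44 in liver. The female-biased list had a median of -0.05, which turned sign under quantile normalization (0.02), and its member Hamp2, a hepcidin, was at -3.24, -5.37 and -0.55 against -0.28, 0.63 and -0.50.

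**Figure D4:**
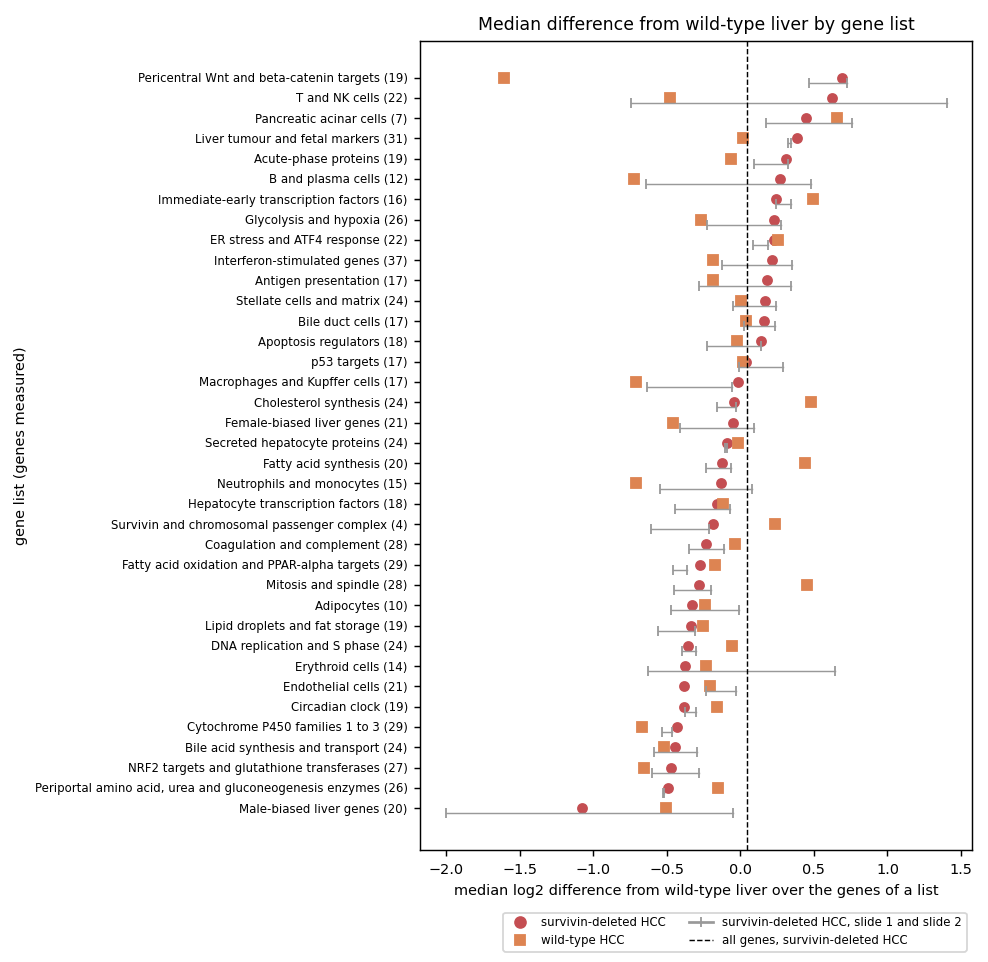
Median log2 difference from wild-type liver over the measured genes of each of 37 lists (number of genes in brackets), for survivin-deleted HCC (circles) and wild-type HCC (squares), with the medians of survivin-deleted HCC on slide 1 and on slide 2 joined by grey bars and the median of all genes as a dashed line. The pericentral list has the widest gap between the tumour groups, 0.69 against -1.61, and the male-biased list the lowest median, -1.08, with a wide gap between the slides.

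Acute-phase proteins were led by serum amyloid A. Saa3 was at 4.71, 2.87 and 1.41 in the deleted tumours, at 1.84, -0.06 and 0.14 in liver and at -1.14 and -0.10 in wild-type HCC (2.35 against liver, SE 0.57, adjusted p = 0.136). Saa2 was at 5.31, 4.35 and 4.77 against 3.90, 2.81 and 4.26 in liver (1.16, SE 0.41, adjusted p = 0.190), and Socs3, the feedback inhibitor of cytokine signalling, exceeded liver by 0.77 (SE 0.32). Ceruloplasmin (Cp) was lower by 0.41 (SE 0.14) on the log2 scale. Of 19 genes 15 were higher than in liver, 3 of them at an unadjusted p under 0.05, and 1 was lower at that level. The 3 became 1 without liver replicate 2 or tumour replicate 3, and the 1 became 0 without liver replicate 3. The median was 0.31, and -0.07 in wild-type HCC.

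All mice had received poly(IC), and 26 of 37 interferon-stimulated genes were higher in the deleted tumours than in liver, with 4 higher and 0 lower at an unadjusted p under 0.05, near the 11.8% of all genes higher. The 4 became 9 without replicate 1 of either group, and 1 was lower without tumour replicate 3. The median was 0.22, but -0.13 on slide 1 and 0.35 on slide 2. Oas2, which makes the second messenger that activates RNase L, was at -0.16, -0.87 and -0.17 against -1.78, -1.75 and -2.07 in liver, with groups that did not overlap (1.47, SE 0.27, adjusted p = 0.131). Gbp3, a guanylate-binding protein, was at 1.59, 1.90 and 1.03 against 0.69, 0.66 and 0.52 in liver and 0.45 and -0.12 in wild-type HCC (0.88, SE 0.29, adjusted p = 0.172). Ifit1, which binds viral RNA, exceeded liver by 0.81 (SE 0.27). Antigen presentation had 0 of 17 in either direction and a median of 0.18, but 6 were higher without replicate 1 of either group, 1 without tumour replicate 3, and 2 were lower without tumour replicate 2.

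Immediate-early genes did not move one way. Ier3, a stress-induced survival gene, was at 1.47, 0.41 and -1.17 in the deleted tumours against -0.16, -2.78 and -3.30 in liver and -1.01 and -0.03 in wild-type HCC (2.32, SE 0.53, adjusted p = 0.136). Klf4, a zinc finger factor, was at 0.78, 0.88 and -1.44 against -1.70, -1.91 and -2.05, and Egr2 exceeded liver by 1.28 (SE 0.48), with 2 of 3 liver arrays well above background. Ier2 was lower by 0.59 (SE 0.19) on the log2 scale. Over 16 genes 3 were higher and 1 lower at an unadjusted p under 0.05 (5 higher without tumour replicate 3, 0 lower without liver replicate 2), and the median was 0.24, beside 0.49 in wild-type HCC. Genes of ER stress had 0 of 22 in either direction and a median of 0.23, with 1 higher when any single array but liver replicate 3 was left out.

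Markers of liver tumours and fetal liver had a median of 0.38 in the deleted tumours and 0.02 in wild-type HCC, with 3 of 31 higher and 0 lower at an unadjusted p under 0.05. The 3 became 5 without replicate 1 of either group or tumour replicate 3 and 7 without liver replicate 3, and 1 was lower without tumour replicate 3 or liver replicate 2. Besides Tspan8 these were Sox9, a regulator of biliary and progenitor cells, and Vil1, the brush border protein villin. Sox9 was at 0.44, 0.66 and 0.79 in the deleted tumours against -0.60, 0.17 and -0.42 in liver and 0.61 and 0.23 in wild-type HCC (0.91, SE 0.27, adjusted p = 0.157). Vil1 was at -4.68, -1.93 and -1.98 against -5.26, -4.16 and -5.22 in liver, where 2 of 3 arrays had it well above background. The growth factor Igf2 ranged from -2.74 to 3.68 in the deleted tumours and from -4.06 to 1.24 in liver, the proteoglycan Gpc3 from -0.14 to 2.32 and from -1.88 to 1.86, and the surface protein Ly6d from 4.64 to 5.25 and from 0.68 to 4.72. For Igf2 and Gpc3 the spread within each group was larger than the difference between them.

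Markers of other cell types varied between arrays of one group. The T and NK cell list had 21 of 22 genes higher in the deleted tumours and a median of 0.62, beside -0.48 in wild-type HCC, but the median was -0.75 on slide 1 and 1.41 on slide 2. The mean level over the list was -0.71, -1.97 and -2.37 in liver replicates 1 to 3 and -1.29, -0.47 and -1.39 in the deleted tumours, with liver replicate 1 above its fellows and tumour replicate 2 above its own. Without that tumour the median was 0.24. At an unadjusted p under 0.05 only the surface receptor Cd5 was higher (0.87, SE 0.26) and the signalling kinase Zap70 lower (-0.81, SE 0.20). The higher count became 10 of 22 without replicate 1 of either group and 2 without tumour replicate 2 or 3. The defining markers Cd3e, Cd3d and Cd2 exceeded liver by 0.91 (SE 0.51), 0.94 (SE 0.66) and 1.14 (SE 0.74).

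The B and plasma cell list was divided by slide as well, with -0.64 on slide 1, 0.48 on slide 2 and 0.27 combined over 12 genes, and 1 of 12 higher at an unadjusted p under 0.05, the B cell receptor inhibitor Cd22 (0.86, SE 0.33). It became 2 without replicate 1 of either group or liver replicate 3. The mean level ranged from -2.16 to -1.38 in liver, from -1.80 to -1.25 in the deleted tumours and from -2.78 to -2.70 in wild-type HCC. The part of lymphocytes in the Wnt, acute-phase and interferon results was not tested.

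The macrophage list, which takes in the Kupffer cells resident in liver, had a median of -0.01, with 7 of 17 genes higher and 10 lower. At an unadjusted p under 0.05, 1 was higher and 4 lower. Vsig4, a complement receptor of Kupffer cells, was at 2.24, -0.81 and 1.18 in the deleted tumours against 3.19, 2.09 and 2.45 in liver and 0.00 and 0.98 in wild-type HCC (-1.71, SE 0.54, adjusted p = 0.166). The lectin Clec4f was at 3.06, 0.13 and 2.26 against 3.90, 2.76 and 3.26 (-1.49, SE 0.57, adjusted p = 0.210). Timd4 and Cd5l were lower by 1.17 (SE 0.43) and 1.12 (SE 0.38) on the log2 scale. In all 4 the lowest tumour was replicate 2, and wild-type HCC was low too. Cd14, the endotoxin co-receptor, was the reverse, at 5.05, 3.93 and 3.52 against 3.18, 1.49 and 2.87 (1.66, SE 0.58, adjusted p = 0.188). The median of the list was 0.09 under quantile normalization, 0.15 without tumour replicate 3 and -0.39 without tumour replicate 2. The 4 became 0 without liver replicate 3, and the 1 became 0 without replicate 1 or 2 of either group and 2 without tumour replicate 3. The mean level ranged from 1.41 to 2.34 in liver and from 1.23 to 2.06 in the deleted tumours.

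Markers of sinusoidal and vessel endothelium were lower in 16 of 21, with 4 lower and 0 higher at an unadjusted p under 0.05 and a median of -0.38. The 4 became 2 without liver replicate 2 and 1 without liver replicate 3, the median was -0.24 without replicate 1 of either group and -0.21 without tumour replicate 3, and in the last case 1 gene was higher. Besides Rspo3, Ptprb, a phosphatase of vessel walls, was at 2.14, 1.35 and 1.63 against 3.07, 2.32 and 2.21 in liver (-0.83, SE 0.19, adjusted p = 0.136). Clec4g, a lectin of sinusoids, was at 2.43, 0.03 and 2.07 against 2.88, 2.77 and 3.02. The stellate cell and matrix list had 15 of 24 genes higher and 9 lower, with 1 higher, Timp1, and 3 lower at an unadjusted p under 0.05. Lrat, which stores vitamin A, was at -0.97, -1.59 and -0.83 in the deleted tumours and at -0.92 and -2.41 in wild-type HCC against 0.48, 0.29 and 0.01 in liver (-1.39, SE 0.39, adjusted p = 0.147). The matrix proteoglycans Dcn and Lum were lower than liver by 1.01 (SE 0.24) and 0.90 (SE 0.25) on the log2 scale, and wild-type HCC differed from liver by -1.19 and -1.73. The median of the list was 0.17, and 0.01 in wild-type HCC. It was -0.13 without tumour replicate 2, and 6 genes were higher without tumour replicate 3.

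Among bile duct markers 3 of 17 were higher and 1 lower at an unadjusted p under 0.05, with 1 higher without replicate 1 of either group and 0 lower when any single array but tumour replicate 3 was left out. Krt7, a keratin of bile ducts, was at -0.05, -0.30 and -0.29 against -0.48, -0.97 and -0.50 in liver (0.43, SE 0.16, adjusted p = 0.201), and Sctr, the secretin receptor, exceeded liver by 1.20 (SE 0.42) with 2 of 3 liver arrays well above background. The list's median of 0.16 turned to -0.05 under normexp background correction. Of the neutrophil and monocyte list 1 of 15 was higher, Ccr2, the receptor that recruits monocytes (0.97, SE 0.28, adjusted p = 0.153), and 3 were lower, with a median of -0.13 that turned to 0.09 with array weights and 0.08 without replicate 1 of either group. There no gene passed that level in either direction, and the 3 became 0 without tumour replicate 2 and 1 without liver replicate 3. Pancreatic acinar genes, a sign of neighbouring tissue, had 2 of 7 higher and a median of 0.44, and 1 of 7 and 0.18 without replicate 1 of either group. The amylase Amy2a5 read -0.27 in liver replicate 1 against 3.23 to 4.14 on the other 5 arrays compared, and the lipase Cel was higher by 1.09 (SE 0.32), with 2 of 3 liver arrays well above background. Of the adipocyte list 1 of 10 was lower, the carbonic anhydrase Car3, which was at 4.29, 2.57 and 4.32 against 5.91, 5.75 and 5.47 in liver (-1.99, SE 0.62, adjusted p = 0.162). Erythroid genes had a median of -0.38 that turned to 0.12 without tumour replicate 3, with 3 of 14 lower without replicate 1 of either group and 0 without any other array, and clock genes a median of -0.38, with 5 of 19 lower without tumour replicate 3 and 0 without replicate 2 of either group.

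**Figure D5:**
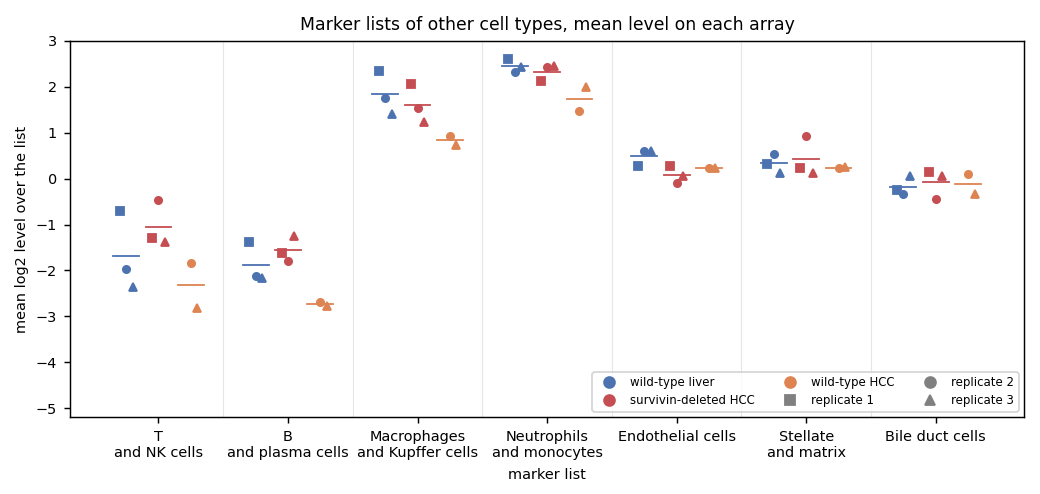
Mean log2 level over the measured genes of 7 marker lists of non-hepatocyte cells on each array (points; shape gives the replicate), with group means (lines). The T and NK cell points of liver replicate 1 (-0.71) and survivin-deleted HCC replicate 2 (-0.47) lie above the rest of their groups, and endothelial means run from -0.10 to 0.28 in the deleted tumours and from 0.28 to 0.61 in liver.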

How the data were processed

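The deposited scanner files hold the intensity of each spot, per the file headers from Agilent Feature Extraction 10.7 with coordinates of mm9. Processed green intensity, which the authors' scanner software had background-corrected, was used here as log2 minus each array's 75th percentile over non-control spots. The deposited value table holds log2 values of the same arrays and was an alternative. Flagged outlier spots were left out, spots of a probe were averaged, and probes well above background on every array of at least 1 group were kept, with the probe of highest mean for each gene name. With limma 3.58.1 (R 4.3.3), 10 arrays in 4 groups were fitted with slide as a fixed block (5 residual degrees of freedom), two-sided, with Benjamini-Hochberg adjustment at 0.05. Where no array of a group had a gene well above background, its fold is given as a bound.

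The members, gene lists and tests were chosen with earlier results of these data known. Named genes are Birc5, the 5 of smallest p per direction because none passed, the 5 of largest tumour-group difference in each order class, and up to 4 members of each list per direction of smallest p. Alb, Hnf4a, Apoa1, Oat, Cyp1a2, Cyp4a14, Hk2, Ntf3, Arhgap30, Akr1c19, Serpinb1a, Pth1r, Hectd2, Rdh16, Eif2s3y, Ddx3y, Uty, Kdm5d, Cyp3a41b, Dntt and the list members given beyond 4 were chosen after their values were seen. The p conditions on the order classes were added after the first counts.

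Same-numbered arrays of the groups compared deviated together (r = 0.557, 0.352 and 0.406). Arrays of different number on slide 2 also did (r = 0.169 and 0.323), and pairs across slides ran from -0.52 to -0.30. Numbers follow the slide, which is already a block. Within slide 2 the difference between replicates 2 and 3 correlated at 0.176 between the groups. Whether slide accounts for these correlations was not tested. The scripts were tested on simulated data. The number of arrays limits the precision. The genes of the deposited arrays were named by their design, and 26762 of 55681 probes were matched to RefSeq by accession. A few named genes are not reported here.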

Additional observations from a re-analysis of the deposited data

How the results depend on the processing

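Survivin-deleted HCC against wild-type liver was recomputed under 20 other settings, and 0 genes passed in either direction under most of them. The exceptions were 1 higher gene, Timp1, with all 12 arrays as labelled and with the 2 arrays in doubt exchanged, and 1 lower gene, XIST, with the arrays exchanged, slide 2 only, quantile normalization, normexp background correction, array weights, and without replicate 1 of either group, so that leaving out single arrays gave 0 to 1. The replicate block gave 0 genes, with a smallest adjusted p of 0.155. The smallest adjusted p ranged from 0.00910 (quantile) to 0.350 (only the 6 arrays compared).

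At an unadjusted p under 0.05, higher genes numbered 2030 with 12 arrays as labelled, 1958 with 6 arrays, 1316 without a slide block and 740 with a 2-fold threshold. Lower genes numbered 1413 with 6 arrays, 836 without a block and 455 with the 2-fold threshold. Lower genes outnumbered higher ones with normexp (2377 against 2102) and with the 2 arrays in doubt exchanged (2260 against 2120). They also did so when all arrays had to be well above background (2429 against 1717). Wild-type HCC against liver had 84 calls with array weights and 0 to 1 without single arrays. Between the tumour groups the calls were 0 with 12 arrays either way, without a block and without the filter, 1 on slide 2 and with normexp, 4 with array weights, and 0 to 2 without single arrays. Returning at adjusted p held 3 genes with array weights and 0 to 1 without single arrays. By order alone, staying numbered 2652, returning 2692 and passing 1770 on slide 2 only. Staying numbered 509 with all arrays well above background. Without single arrays staying ranged from 436 to 1787, returning from 3686 to 6462 and passing from 417 to 976. The order depends on how many arrays a group has and on whether both slides are in it.

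Of 160 named genes 151 kept their sign, among them all 117 with an unadjusted p under 0.05. A kept sign is no test here, because most of these genes were chosen by their p or difference in these data. Several settings also cannot alter a difference of 3 against 3 arrays. Birc5, for example, differed by -1.324 with the slide block, with the replicate block and with no block. Signs turned on slide 2 only for Aurkb (-0.00976) and Slc1a4 (0.00896), with quantile normalization for Slc1a4 (0.0793), with normexp for Alb (-0.113), Notum (-0.0121), Rgn (0.0380) and Slc1a4 (0.106), and with array weights for Apoa1 (-0.00265) and Cyp4a14 (0.0635). Without single arrays, values ran from -0.00976 (without replicate 1 of either group) to 0.963 for Aurkb, from -0.134 to 0.0978 for Slc1a4, from -0.00463 (without liver replicate 3) to 0.172 for Alb, from -0.0271 to 0.0885 for Apoa1, from -0.0341 to 0.155 for Hnf4a and from -0.0978 (without liver replicate 2) to 0.666 for Oat. Between the tumour groups they ran from -0.0850 to 3.49 for Bean1 and from -2.59 to 0.0148 for Slc2a5, and in both the sign turned without survivin-deleted HCC replicate 2. Of 37 list medians 27 kept their sign throughout. The cause of these shifts was not tested. Dim probes in liver limit sizes where only a bound or part of the arrays was measured.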
